A study of Caenorhabditis elegans with 15 samples.

Results

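The 10 genes described here make the eggshell of Caenorhabditis elegans or act when the fertilised egg is activated: cbd-1, egg-1, egg-2, egg-3, chs-1, cpg-1, cpg-2, cpg-3, perm-2 and perm-4. They were chosen by their known roles, but with earlier results of these data known. They were found by WormBase symbol among the 47111 genes of the deposited count table. All 10 passed the filter on low counts, which kept 17217 genes for testing. Poly(A)-selected RNA of young adults was sequenced in 15 libraries, 3 for each of 5 genotypes. There were 4 strains with a puf-8 allele, named ust221, ust222, ust223 and ok302, and N2, the wild type of most laboratories, which carries none of them. The labels add a short code to each ust allele, which is not interpreted here, and name no other mutation or transgene. Larvae hatched in synchrony were raised at 20 °C on the bacterial strain OP50. Separate cultures behind the 3 libraries of a genotype are not stated, so each p-value reflects only how much these samples vary, and that variation may be technical.

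The eggshell of the worm is built in layers around the egg within minutes of sperm entry, and most of its parts are made beforehand in the oocyte. An outer vitelline layer is already present on the oocyte. Under it a chitin layer and then a layer of chondroitin proteoglycans are laid down, the last by release of cortical granules, and a lipid-rich permeability barrier seals the embryo. Egg activation couples this secretion to meiosis through a protein complex at the egg cortex. PUF-8 is an RNA-binding protein of the Pumilio family that controls mRNAs in the germline.

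In the deposited coordinates, for which no genome build is named, the genes lay on 4 chromosomes. The gene cbd-1 stood at IV:11372991-11377627 on the plus strand, perm-2 at IV:1126790-1128848 on the plus strand and perm-4 at IV:1121457-1125107 on the minus strand. Thus perm-2 and perm-4 were neighbours that point away from each other, with 1682 bases and 0 annotated genes between them. On chromosome III were egg-1 (5728180 to 5730159, plus), egg-2 (7058516 to 7060597, minus), cpg-1 (4489359 to 4491392, plus) and cpg-2 (7102086 to 7103990, minus). The gene egg-3 stood at II:10882408-10884462 on the minus strand, chs-1 at I:7554855-7559916 and cpg-3 at I:7244937-7246295, both on the plus strand. All 10 were annotated as protein coding. The deposited descriptions gave a chitin binding Peritrophin-A domain for cbd-1, cpg-1 and cpg-2, and a low-density lipoprotein receptor class A domain for egg-1 and egg-2. They gave a protein-tyrosine phosphatase domain for egg-3, a chitin synthase domain for chs-1 and no domain for perm-2, perm-4 and cpg-3. Another annotated gene overlapped 5 of the 10 (egg-1, egg-2, egg-3, chs-1 and cpg-3), by 11 to 221 bases, and the strand setting of the counting is not given in the sources used here. For chs-1 the overlap of 78 bases is with T25G3.3 on the same strand, which itself had 1304 to 3643 counts per library.

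Each library held 20969800 to 29352254 counts. The label of ok302 was checked first: puf-8 had 7, 11 and 3 counts in ok302 libraries, against 2043, 3899 and 2267 in N2 libraries. Levels are given as CPM, the usual depth-corrected count, with library sizes scaled by TMM, a trimmed mean of gene-wise ratios between libraries. The TMM factors were 0.688, 0.765 and 1.02 in ust221 libraries, and from 0.881 to 1.19 in libraries of the other genotypes. In CPM, puf-8 ranged over 49.9 to 67.1 in ust221, 65.8 to 107 in ust222, 114.7 to 166 in ust223, 0.122 to 0.400 in ok302 and 79.9 to 139 in N2. Libraries 1 and 3 of ust222 and library 1 of N2 stood apart from the other 12. Their 12 sperm marker genes summed to 11.6, 12.2 and 10.7 CPM, against 62.2 to 222 CPM in the other 12 libraries. Their 9 molting genes summed to 491, 518 and 447 CPM, against 43.5 CPM in the other ust222 library and 53.5 and 51.5 CPM in the other N2 libraries. The molting genes set them apart only within ust222 and N2, since the same sum was 315, 473 and 411 CPM in ok302 libraries, 138 to 213 CPM in ust223 and 31.9 to 55.4 CPM in ust221. Markers of the early embryo summed to 15.1, 16.1 and 32.3 CPM in the 3 libraries that stood apart and to at most 11.9 CPM in the others, with 0.271 to 0.837 CPM in ust221. Markers of the oocyte, the cell that makes the eggshell proteins, summed to 2014 to 8077 CPM.

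Together the 10 genes took up 0.443% to 1.14% of all counts of a library. Per gene length, which allows levels of different genes to be set side by side, cpg-2 was the most abundant in N2 at 1651 ± 352 RPKM (CPM divided by the gene length in kilobases; SD, n = 3). It was followed there by perm-2 at 825 ± 256 RPKM and perm-4 at 638 ± 171 RPKM. The chitin synthase gene chs-1 was the lowest of the 10 in N2, at 56.4 ± 23.4 RPKM. In ok302 the order at the top differed: perm-2 averaged 1043 ± 256 RPKM, perm-4 905 ± 240 RPKM and cpg-2 598 ± 55.4 RPKM. The same gene, perm-2, was also on top in ust221, at 1400 ± 641 RPKM, while cpg-2 led in ust222 at 1173 ± 102 RPKM and in ust223 at 1828 ± 171 RPKM.

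In ok302, 8 of the 10 genes were lower than in N2 and the other 2, perm-2 and perm-4, were not called (edgeR's quasi-likelihood test, Benjamini-Hochberg adjusted p under 0.05 over all genes tested). Of all genes tested, 15.4% were called lower in ok302 and 8.45% higher. The median log2 fold change of the 10 genes was -1.26, beside 0.10 over all genes. In 7 of the 8 the ok302 libraries lay below every N2 library, a pattern that 18.6% of all genes showed. In bulk RNA, fewer cells of a type and less RNA per cell cannot be told apart. All 10 oocyte markers were also lower in ok302, with summed levels of 2014 to 2465 CPM in ok302 against 5461 to 8077 CPM in N2, and the part of this in the result was not tested. The comparisons of the 4 alleles with N2 share the same N2 libraries.

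**Figure D1:**
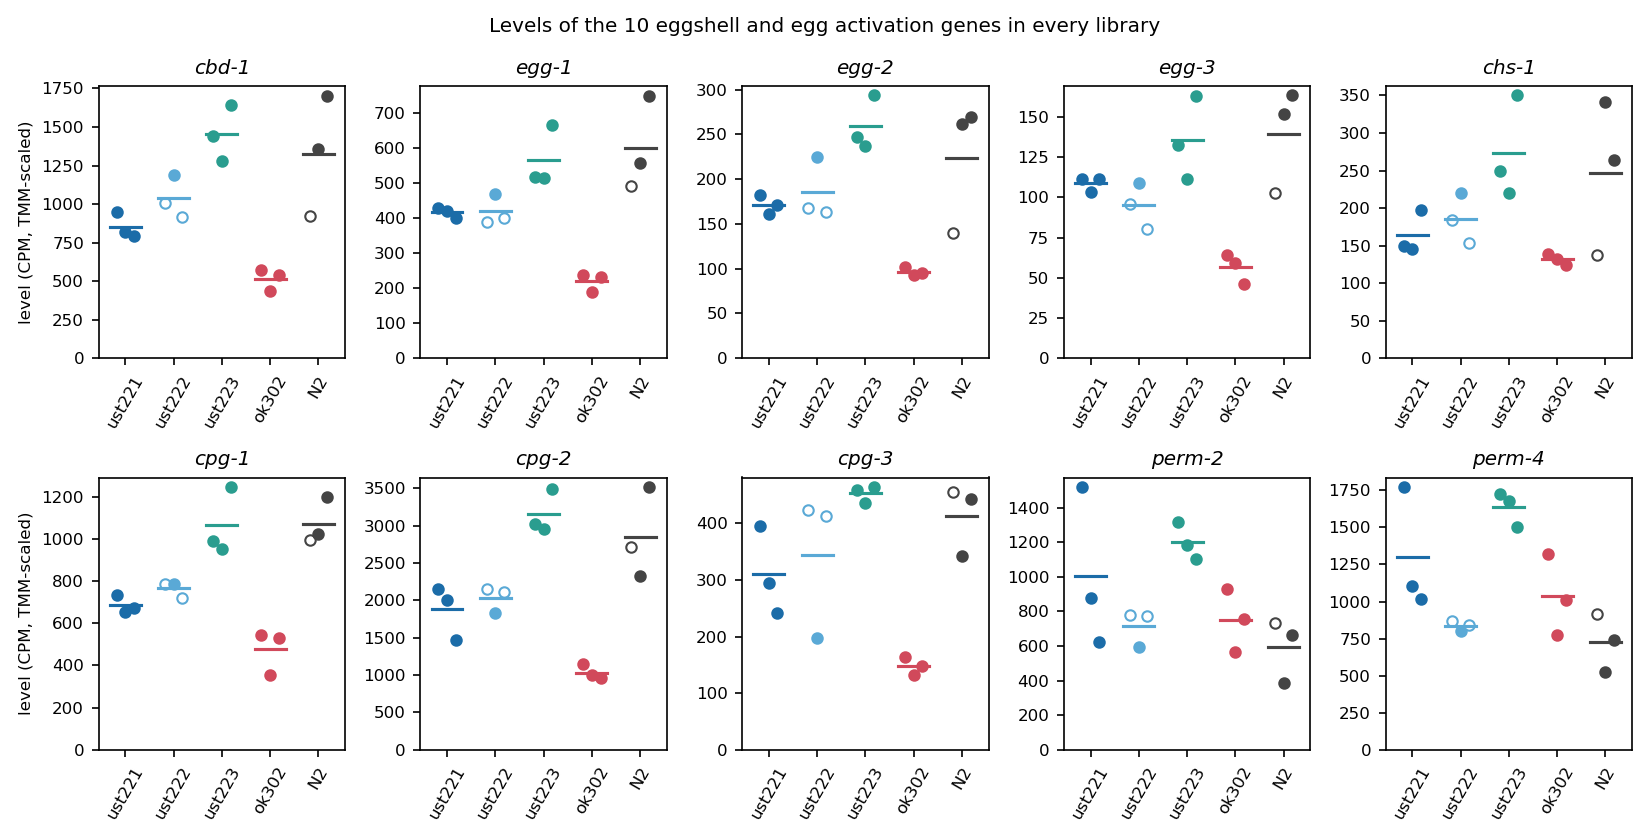
Level of each of the 10 genes (CPM on a linear axis from 0) in every library of ust221, ust222, ust223, ok302 and N2; points are libraries, lines are means of 3, and open points mark the 3 libraries with few sperm transcripts. The ok302 points lie lowest for cbd-1, the egg genes and the cpg genes, but among the other genotypes for perm-2 and perm-4.

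The vitelline layer gene cbd-1 encodes a chitin-binding protein that holds EGG-1 and EGG-2 at the oocyte surface. It had 952, 819 and 792 CPM in ust221 libraries, 1006, 1188 and 915 in ust222, 1443, 1282 and 1642 in ust223, 569.9, 436 and 543 in ok302, and 923, 1356 and 1703 in N2. After TMM scaling all ok302 libraries were below all others, and the N2 libraries were as widely spread as those of ust222 and ust223 together. Per total counts this order did not hold: ok302 library 1 (13620 of 21328287) was above ust221 library 2 (14676 of 23445655). The share of all genes lowest in ok302 among the genotypes was not taken, here or for the genes below. In ok302 it was lower than in N2 by log2 -1.36 ± 0.22 (SE, here and for all log2 fold changes; adjusted p = 0.00104).

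The genes egg-1 and egg-2 encode membrane proteins of the egg surface with receptor-like repeats, both needed for sperm entry. In egg-1 the values were 427, 421 and 399 CPM in ust221, 389, 468 and 401 in ust222, 517, 514 and 665 in ust223, 238, 190.3 and 232 in ok302, and 492, 556 and 748.5 in N2. In egg-2 they were 182, 161 and 171 CPM in ust221, 168, 225 and 164 in ust222, 247, 238 and 294 in ust223, 102, 92.6 and 95.1 in ok302, and 139.6, 262 and 269.8 in N2. Both genes were lowest in ok302 with no library overlapping another genotype, and ust221 and ust222 lay between ok302 and ust223 with 1 N2 library of egg-2 below them. The fall in ok302 against N2 was log2 -1.44 ± 0.18 for egg-1 (adjusted p = 0.000315) and -1.21 ± 0.22 for egg-2 (adjusted p = 0.00194). Libraries had 2.06 to 2.44 reads of egg-1 per read of egg-2 in ok302, against 2.13 to 3.53 in N2, so the proportion of the pair overlapped.

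The gene egg-3 encodes an inactive phosphatase-like protein of the egg cortex that anchors the chitin synthase and the kinase MBK-2. Its levels were 112, 104 and 111 CPM in ust221, 96.1, 109 and 80.6 in ust222, 132, 111 and 163 in ust223, 64.1, 58.9 and 46.4 in ok302, and 103, 152 and 163 in N2. The ok302 libraries were lowest without overlap, and egg-3 was lower there than in N2 by log2 -1.30 ± 0.21 (adjusted p = 0.000918).

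The gene chs-1 encodes the chitin synthase that makes the chitin layer. Levels of chs-1 were 149, 146 and 197 CPM in ust221, 184, 219 and 154 in ust222, 249, 219.5 and 351 in ust223, 139, 132 and 124 in ok302, and 137, 341 and 263 in N2. Here the ok302 libraries overlapped those of N2, whose library 1 was as low as ok302. The change in ok302 against N2 was log2 -0.91 ± 0.28 (adjusted p = 0.0325), the smallest of the 8 called. It was not called without ok302 library 2 (adjusted p = 0.0826), N2 library 2 (0.141) or N2 library 3 (0.0883), nor with library totals in place of TMM (0.132). Without N2 library 1 it was -1.19 (adjusted p = 0.000684).

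The cpg genes encode chondroitin proteoglycans. CPG-1 and CPG-2 form the layer under the chitin, and CPG-3 fills the space around the embryo. Counts of cpg-1 stood at 736, 652 and 670.2 CPM in ust221, 785, 787 and 722 in ust222, 992, 953 and 1247 in ust223, 542, 356 and 529 in ok302, and 993, 1024 and 1197 in N2. For cpg-2 the levels were 2155, 2007.5 and 1475 CPM in ust221, 2152, 1826 and 2108 in ust222, 3031, 2953 and 3498 in ust223, 1143, 998 and 962 in ok302, and 2722, 2323 and 3519 in N2. For cpg-3 they were 396, 294 and 241 CPM in ust221, 424, 198 and 413 in ust222, 459.7, 436 and 464 in ust223, 163, 132 and 148 in ok302, and 456, 341 and 443 in N2. In all 3 genes the ok302 libraries were below every other library after TMM scaling, and ust223 libraries reached or overlapped the N2 levels. Per total counts cpg-1 overlapped between ok302 and ust221, with 12959 of 21328287 in ok302 library 1 and 10860 of 21466938 in ust221 library 1. In cpg-1 and cpg-2 every ust221 and ust222 library was also below every N2 library. The change in ok302 against N2 was log2 -1.17 ± 0.18 for cpg-1 (adjusted p = 0.000874), -1.46 ± 0.21 for cpg-2 (0.000488) and -1.49 ± 0.26 for cpg-3 (0.00175).

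The vitelline layer proteins PERM-2 and PERM-4, reported to act together with CBD-1, are needed for the permeability barrier to form. For perm-2 the levels were 1518, 876 and 625 CPM in ust221, 779.9, 592 and 771 in ust222, 1317, 1187 and 1106 in ust223, 930.2, 563 and 757 in ok302, and 732, 385 and 662 in N2. For perm-4 they were 1774.5, 1102 and 1018 CPM in ust221, 867, 801 and 840.2 in ust222, 1729, 1678 and 1505 in ust223, 1321, 776 and 1007 in ok302, and 917, 526 and 744 in N2. Both genes had their lowest mean in N2 and their highest in ust223, and each genotype overlapped the next in that order. In ok302 the difference from N2 was log2 0.34 ± 0.31 for perm-2 (adjusted p = 0.446, 95% interval -0.34 to 1.02) and 0.51 ± 0.26 for perm-4 (adjusted p = 0.171, interval -0.05 to 1.06). With library totals in place of TMM, perm-4 was called higher in ok302, at 0.70 (adjusted p = 0.0481). The interval of perm-4 lies above those of the other 8 genes, the highest of which ended at -0.30 for chs-1, and that of perm-2 overlaps that of chs-1 only. Markers of the gonadal sheath and spermatheca, somatic cells that touch the oocyte, summed to 428 to 451 CPM in ok302 against 464 to 533 CPM in N2. Most of that sum was fln-1, a filamin, at 288 ± 12.7 CPM in ok302 and 370.4 ± 25.9 CPM in N2 (SD, n = 3 each). The gap junction gene inx-9 had 24.6 to 30.5 CPM in ok302 against 4.70 to 18.9 CPM in N2, without overlap (log2 0.99 ± 0.52, adjusted p = 0.184). Over all 15 libraries 0 of those 6 markers were called in ok302 by edgeR or DESeq2, and 0 had an unadjusted p under 0.05. Over the 12 libraries without the 3 that stood apart edgeR called 3 higher, lim-7 at 0.90 (adjusted p = 0.0334), ceh-18 at 0.82 (0.00958) and inx-9 at 0.58 (0.025). In that fit 26.2% of all genes were called higher in ok302, and the median log2 fold change of all genes was 0.39. The part of the 6 markers in the perm-2 and perm-4 values was not tested.

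**Figure D2:**
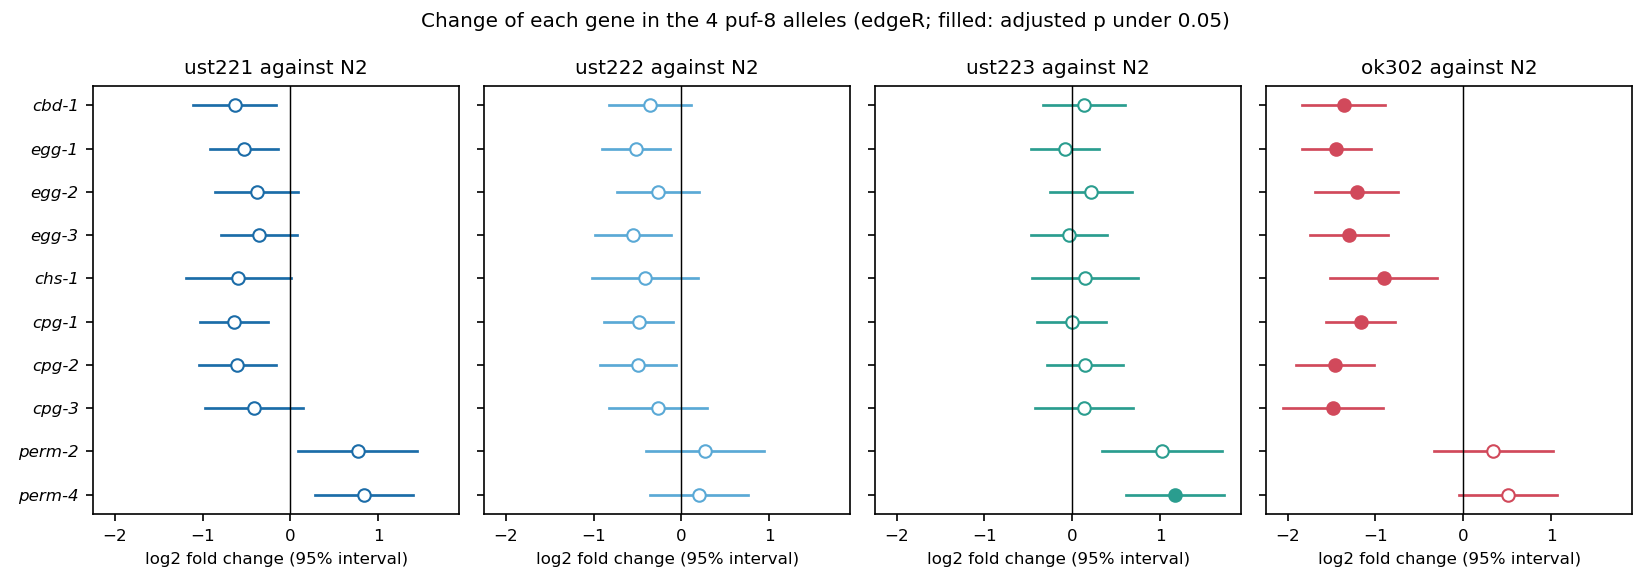
Log2 fold change of each gene in ust221, ust222, ust223 and ok302 against N2 (points) with its 95% interval (lines), from the edgeR model over 15 libraries; filled points have an adjusted p under 0.05. In ok302 the 8 genes from cbd-1 to cpg-3 lie at -0.91 or lower, and in ust223 perm-4 at 1.17 is the only filled point.

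Against N2, ust221 and ust222 had none of the 10 genes called by edgeR, with 1.79% and 0.00581% of all genes called. At an unadjusted p under 0.05 there were 6 genes in ust221 and 4 in ust222. The share of all genes at that p was not taken, here or for any other count at an unadjusted p. DESeq2 called 4 lower and 1 higher in ust221, where it called 2064 of all genes. In ust222 it called 0 of the 10 and 88 of all genes. The 8 genes from cbd-1 to cpg-3 had log2 fold changes of -0.64 to -0.36 in ust221 and -0.55 to -0.26 in ust222, while perm-2 stood at 0.76 ± 0.32 and 0.27 ± 0.31 and perm-4 at 0.83 ± 0.26 and 0.20 ± 0.26. In ust221 the lowest was cpg-1 at -0.64 ± 0.18 (adjusted p = 0.0787, interval -1.03 to -0.25). Libraries of ust221 and N2 did not overlap in egg-1, cpg-1 and cpg-2, which were lower (7.95% of all genes), and in perm-4, which was higher (11.2%). The perm-4 separation held only after TMM scaling: ust221 library 2 had 19760 of 23445655 counts and N2 library 1 had 23437 of 24165898. With library totals in place of TMM, 4 of the 10 were called lower in ust221 and 0 higher, with 1133 of all genes called. In ust222 egg-1, cpg-1 and cpg-2 also lay lower than N2 without overlap (5.06%). Without N2 library 1, 5 genes were called in ust221: cbd-1, egg-1, egg-2 and chs-1 lower and perm-4 higher. In that fit 1482 of all genes were called in ust221. Of the 10 oocyte markers, 6 were called lower in ust221 (0.761% of all genes) and 0 in ust222, where 8 had an unadjusted p under 0.05 and DESeq2 called 2 lower. Their summed levels were 3458 to 4320 CPM in ust221 and 4378 to 5226 CPM in ust222, against 5461 to 8077 CPM in N2, and their part in these values was not tested.

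In ust223 perm-4 was higher than in N2 by log2 1.17 ± 0.26 (adjusted p = 0.0455), and the other 9 genes were not called. Of all genes, 1.13% were called higher in ust223. Every ust223 library of perm-4 and of perm-2 was above every N2 library, as in 8.68% of all genes, and perm-2 differed by log2 1.02 ± 0.32 (adjusted p = 0.185). The other 8 genes had log2 fold changes of -0.08 to 0.21, with intervals that together spanned -0.48 to 0.74. The 10 oocyte markers had a median of -0.40 in ust223. Of them edgeR called 0, 5 had an unadjusted p under 0.05 and DESeq2 called 3 lower. They summed to 4875 to 5961 CPM in ust223 against 5461 to 8077 CPM in N2, and their part in these values was not tested. The call of perm-4 stood close to the threshold. It was lost with no filter on low counts (adjusted p = 0.0511), with DESeq2's size factors (0.0682), in a fit of the 6 libraries alone (0.273) and without any 1 of ust223 libraries 1, 2 and 3 (0.15, 0.148, 0.105) or N2 libraries 2 and 3 (0.164, 0.143). DESeq2 gave an adjusted p of 0.0046. Over the 12 libraries without the 3 that stood apart, both genes were called, perm-2 at 1.29 (adjusted p = 0.0294) and perm-4 at 1.46 (adjusted p = 0.00711), beside 7.84% of all genes called higher. Over the 15 libraries the 6 sheath and spermatheca markers had a median log2 fold change of -0.07 in ust223, beside -0.08 over all genes. They ranged from -0.35 to 0.92. The highest was inx-8, a gap junction gene, with 125 to 135 CPM in ust223 against 50.4 to 82.4 CPM in N2. Its libraries did not overlap (log2 0.92 ± 0.24, adjusted p = 0.0829). The filamin gene fln-1 had 312 to 364 CPM in ust223 against 353 to 400 CPM in N2. Of the 6 markers edgeR called 0 in ust223 and 0 in ust221, with 1 and 2 at an unadjusted p under 0.05. DESeq2 called 1 of them higher in ust223 and 2 in ust221, with 730 and 2064 of all genes called. The part of the 6 markers in the perm-2 and perm-4 values of ust223 and ust221 was not tested.

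Set against ok302, the ust alleles had higher levels of most of the 10 genes. In ust221 6 were called higher (10.9% of all genes), in ust222 7 (7.62%) and in ust223 8 (12.2%). The genes called in all of these comparisons were cbd-1, egg-1, egg-2, egg-3, cpg-2 and cpg-3. Libraries did not overlap those of ok302 in the 8 genes from cbd-1 to cpg-3 in ust221 and ust222 and in all 10 in ust223, all higher (24.4%, 18.5% and 28.8% of all genes). In ust221 this held only after TMM scaling for cbd-1, chs-1 and cpg-1. Per total counts chs-1 had 2202 of 21466938 in ust221 library 1 but 3315 of 21328287 in ok302 library 1. In ust222 cpg-1 was added to the calls, at log2 0.68 ± 0.18 (adjusted p = 0.0232), and in ust223 both cpg-1, at 1.16 ± 0.18 (0.00167), and chs-1, at 1.05 ± 0.28 (0.0218). The median log2 fold change of the 10 was 0.78 in ust221, 0.84 in ust222 and 1.31 in ust223, beside -0.11, -0.12 and -0.16 over all genes. The largest in each was that of cpg-3, at 1.07 ± 0.26, 1.22 ± 0.26 and 1.62 ± 0.26. Neither perm-2 nor perm-4 was called, with log2 fold changes of 0.42 ± 0.31 and 0.33 ± 0.26 in ust221, -0.07 ± 0.31 and -0.31 ± 0.26 in ust222 and 0.68 ± 0.32 and 0.66 ± 0.26 in ust223. In ust223 against ok302, perm-2 was called higher in 1 and perm-4 in 3 of 14 alternatives. The fit of the 6 libraries alone called all 10 higher there, with 8972 of all genes called. With library totals in place of TMM, 0 of the 10 were called in ust221 against ok302. Leaving out ust221 library 1, ust221 library 2 or ok302 library 2 left 2, 3 and 2 called. Of the 10 oocyte markers, 8 were also higher than in ok302 in ust221 and all 10 in ust222 and in ust223. Their summed levels were 3458 to 4320 CPM in ust221, 4378 to 5226 in ust222 and 4875 to 5961 in ust223, against 2014 to 2465 CPM in ok302. Of the 9 molting genes, 8 were lower in ust221 than in ok302, 2 in ust222 and 3 in ust223. Over all genes 2878 were called in ust221, 2904 in ust222 and 3054 in ust223. Of those called, 65%, 45.2% and 68.5% were higher and the rest lower. The part of the oocyte and molting markers in the results was not tested. These comparisons share the ok302 libraries.

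Ratios of reads within a library do not depend on how library sizes are scaled. The pairs given here were chosen after the values were seen, so they are a description with no test. Of the reads of the 10 genes, perm-2 and perm-4 made up 39.2%, 30.1% and 28.8% in ust221, 24.0%, 21.7% and 24.5% in ust222, 30.1%, 29.9% and 23.9% in ust223, 43.2%, 35.8% and 39.7% in ok302, and 21.7%, 12.5% and 14.5% in N2. All ok302 libraries lay above all ust222, ust223 and N2 libraries, and every library of the 4 alleles above every N2 library, the lowest of ust222 by the least. Per read of cpg-2, libraries held 0.704, 0.437 and 0.424 reads of perm-2 in ust221, 0.362, 0.324 and 0.366 in ust222, 0.435, 0.402 and 0.316 in ust223, 0.814, 0.564 and 0.787 in ok302, and 0.269, 0.166 and 0.188 in N2. Every library of the 4 alleles was above every N2 library, by 3.48 times in the mean in ok302 and 1.69 times in ust222. Among the 3 libraries that stood apart the ratio was 0.362 and 0.366 in ust222 against 0.269 in N2, and among the others 0.324 in ust222 against 0.166 and 0.188 in N2. For perm-4 per read of cpg-2 the means were 0.688 ± 0.137 in ust221, 0.413 ± 0.0220 in ust222, 0.523 ± 0.0803 in ust223, 0.993 ± 0.195 in ok302 and 0.258 ± 0.0685 in N2 (SD, n = 3). Libraries of ok302 and N2 overlapped in the next pair of proportions. Reads of perm-4 per read of perm-2 averaged 1.38 ± 0.0451 in ok302 and 1.25 ± 0.123 in N2, and those of cpg-3 per read of cpg-2 averaged 0.143 ± 0.0105 in ok302 and 0.147 ± 0.0208 in N2. Per read of rme-2, the yolk receptor of oocytes, libraries held 1.38 to 2.34 reads of perm-2 in ust221, 0.920 to 1.33 in ust222, 1.18 to 1.71 in ust223 and 2.27 to 3.03 in ok302, against 0.517 to 1.21 in N2. Here ust221 and ok302 did not overlap N2, and ust222 and ust223 did.

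**Figure D3:**
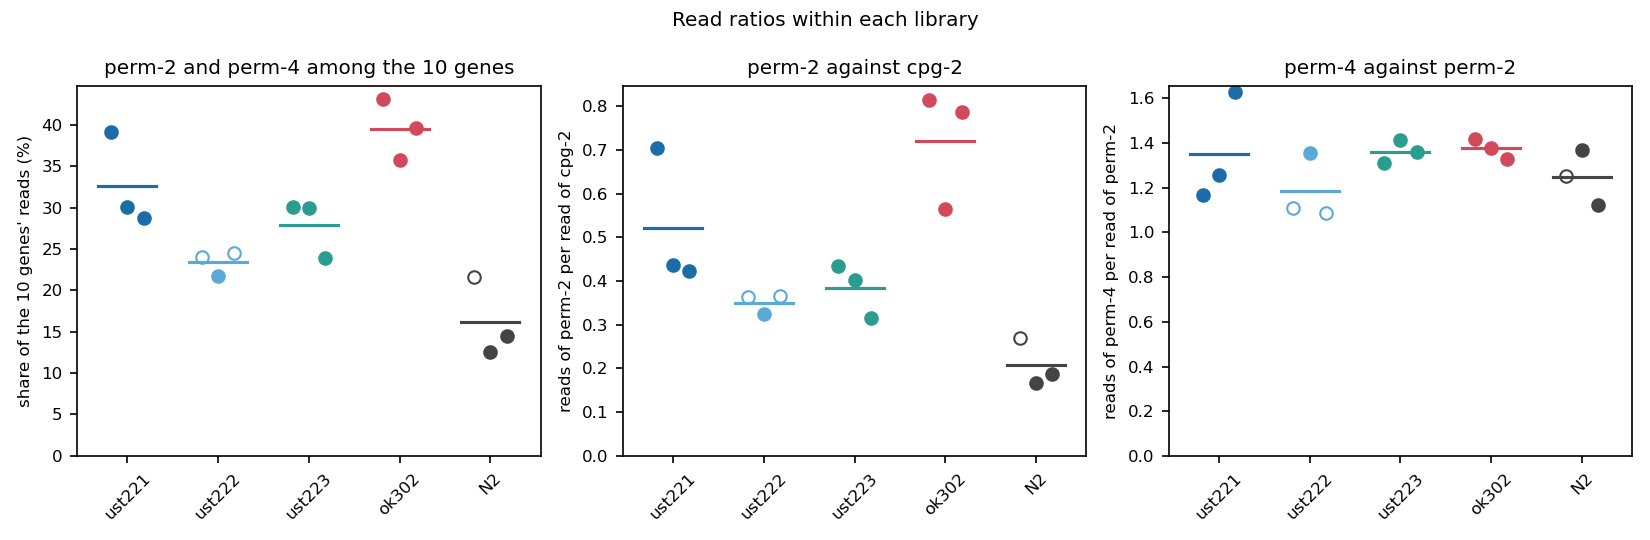
Share of perm-2 and perm-4 in the reads of the 10 genes (left, percent), reads of perm-2 per read of cpg-2 (middle) and reads of perm-4 per read of perm-2 (right) in every library; points are libraries, lines are means of 3, and open points mark the 3 libraries with few sperm transcripts. The first 2 panels have ok302 near the top and N2 at the bottom, while in the right panel the genotypes overlap.

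Over the 15 libraries the log2 levels of cbd-1, the egg genes, chs-1 and the cpg genes moved together. Pearson's r between any pair of these 8 was 0.499 to 0.972, lowest for chs-1 with cpg-3 and highest for cbd-1 with egg-2. The r of perm-2 with perm-4 was 0.954, while perm-2 or perm-4 with the other 8 gave -0.11 to 0.38. These are descriptions over 15 libraries that share genotypes and depth. The 3 libraries that stood apart bear on this too. They had less cbd-1, egg-2, egg-3 and chs-1 and more perm-2 and perm-4 than the other 3 libraries of ust222 and N2, with no overlap. Of all genes tested, 38.5% were lower and 24.3% higher in the 3 libraries without overlap, so such a split was common. The 3 are 2 ust222 libraries and 1 of N2, set against 1 of ust222 and 2 of N2, and the genotypes are thus mixed unequally. As examples, chs-1 ranged over 137 to 184 CPM in the 3 libraries and 219 to 341 CPM in the others, and perm-4 over 840.2 to 917 CPM in the 3 libraries and 526 to 801 CPM in the others.

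Of 33 further genes of the eggshell pathway, 30 were matched and tested, and 21 were lower in ok302 than in N2 and 1 higher, beside 15.4% and 8.45% of all genes. The same shares stand against the count of each single list. The median log2 fold change of the 30 was -0.90, beside 0.10 over all genes. All 3 egg activation partners were lower: egg-4 (-1.20 ± 0.20, adjusted p = 0.00123) and egg-5 (-1.59 ± 0.23, adjusted p = 0.000611), whose proteins bind and inhibit MBK-2, and mbk-2 itself (-1.33 ± 0.13, adjusted p = 1e-04). The near-identical pair egg-4 and egg-5 can share reads, so their separate counts are uncertain. The mbk-2 levels were 161, 161 and 158 CPM in ok302 libraries, against 429, 402 and 374 in N2, with no overlap.

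The sugar that chitin is built of comes from the enzymes of gfat-1, gfat-2 and gna-2. All 3 were lower in ok302, at log2 -0.89 ± 0.22, -1.58 ± 0.22 and -1.25 ± 0.33. For chondroitin synthesis, 7 of 9 genes were lower. They were sqv-2 (-0.79 ± 0.20), sqv-3 (-1.11 ± 0.26), sqv-4 (-1.01 ± 0.18), sqv-5 (-0.81 ± 0.23), sqv-6 (-1.38 ± 0.47), sqv-8 (-0.90 ± 0.20) and mig-22 (-0.88 ± 0.19), which make the sugar precursors, the linker or the chain. In the permeability barrier and its lipid supply, 4 of 7 were lower: dgtr-1, a diacylglycerol acyltransferase relative (-1.18 ± 0.23), pod-2, the acetyl-CoA carboxylase (-0.55 ± 0.18), and cyp-31A2 (-1.14 ± 0.21) and cyp-31A3 (-1.06 ± 0.22), cytochromes P450 that are near-identical copies with uncertain counts. Of 4 genes for release of cortical granules, 2 were lower, sep-1, the separase (-0.97 ± 0.20), and rab-6.1, a Rab GTPase (-0.90 ± 0.22).

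Among 4 other chondroitin proteoglycans, cpg-4 (-1.30 ± 0.25) and cpg-8 (-1.54 ± 0.16) were lower in ok302 and cpg-7 was higher. The cpg-7 levels were 50.2, 64.1 and 48.7 CPM in ok302 libraries, against 27.8, 13.8 and 13.2 CPM in N2, and did not overlap (1.57 ± 0.42, adjusted p = 0.0171). In each of the 4 alleles the cpg-8 libraries lay below all N2 libraries. It had 164, 147 and 104 CPM in ust221, 197, 199 and 204 in ust222, 158, 181 and 170.3 in ust223, 97.5, 92.5 and 98.6 in ok302 and 289.7, 247 and 299.9 in N2. In ust222 it was not called (-0.48 ± 0.16, adjusted p = 0.508). It differed from N2 by log2 -1.01 ± 0.16 in ust221 (adjusted p = 0.0126) and -0.72 ± 0.16 in ust223 (adjusted p = 0.0402), beside 0.761% and 0.227% of all genes called lower. In ust221 mbk-2 was also lower (-0.89 ± 0.13, adjusted p = 0.0108). By edgeR over the 15 libraries no other gene of the 30 was called in ust221 or ust223 against N2. DESeq2 called 3 of the 30 lower in ust221 and 1 in ust223, with 2064 and 730 of all genes called. In ust222 0 were called by edgeR or DESeq2, with 7 at an unadjusted p under 0.05, a count with no share of all genes to set beside it. Over the 12 libraries, where more of all genes were called, edgeR called 10 of the 30 lower in ust221 (6.65% of all genes), 0 in ust222 (0.00545%), 3 in ust223 (3.32%) and 24 in ok302 (23.6%), where 1 was higher (26.2%). Against ok302, 18 of the 30 were higher in ust221 (10.9% of all genes), 14 in ust222 (7.62%) and 17 in ust223 (12.2%), where 1 was lower.

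Of 10 markers of the mitotic and meiotic germline 8 were called lower in ok302 than in N2, beside 15.4% of all genes. Of the sperm markers 4 of 12 were called higher, of the molting genes 3 of 9 and of the male soma 1 of 7, beside 8.45% of all genes. Over the 12 libraries, where N2 library 1 is left out, 9152 genes were called in all, 23.6% of all genes lower and 26.2% higher. There 9 of the 10 germline markers were lower, and 7 of 12 sperm, 9 of 9 molting and 4 of 8 male soma genes were higher. Of 4 early embryo markers with enough counts, 0 were called by edgeR in ok302, with 1 at an unadjusted p under 0.05 and 1 called lower by DESeq2. In ust221 edgeR called 1 of the 4 lower (0.761% of all genes), hch-1, with 1, 0 and 0 counts there against 697, 42 and 63 in N2. The 697 counts are of N2 library 1, which stood apart. DESeq2 called 2 lower in ust221, with 2064 of all genes called.

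**Figure D4:**
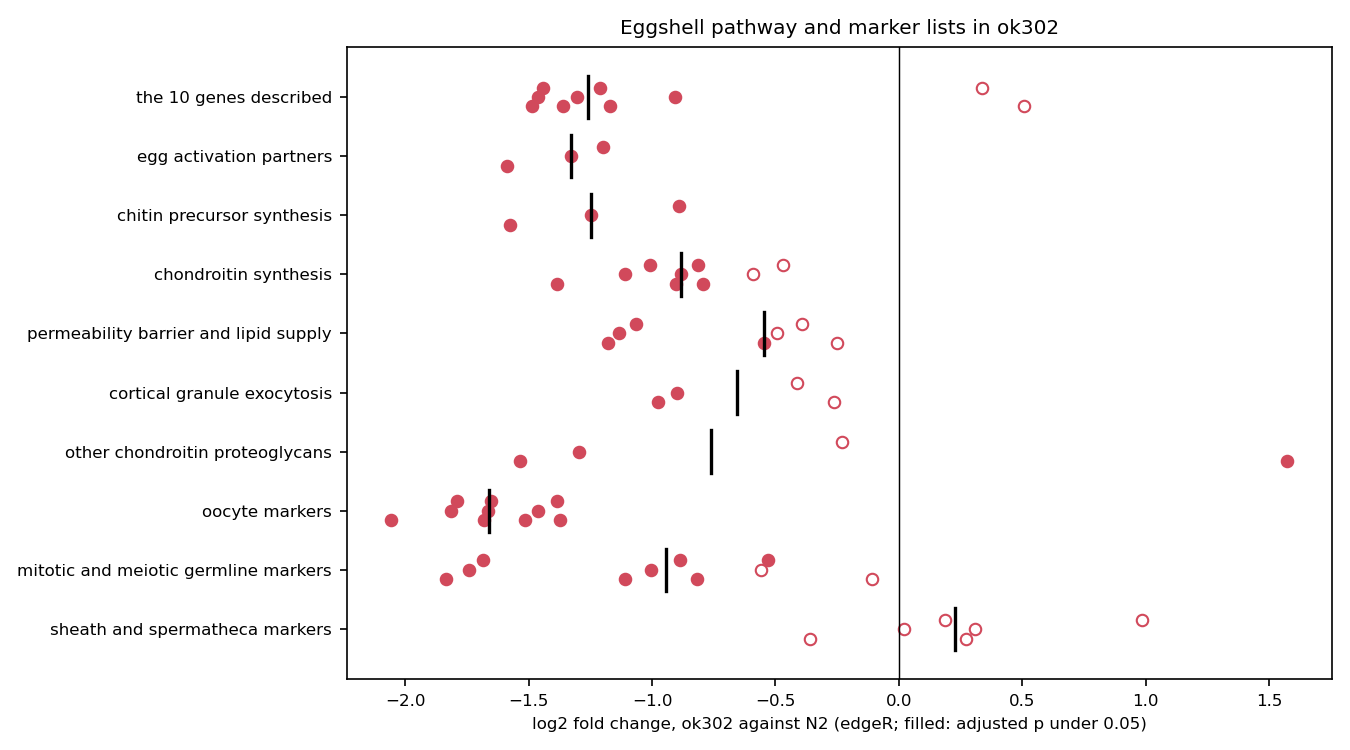
Log2 fold change in ok302 against N2 for the 10 genes, for 6 lists of other eggshell pathway genes and for 3 lists of markers (edgeR over 15 libraries); each point is a gene, filled at an adjusted p under 0.05, and the bar is the median of the list. Oocyte markers lie at -1.37 or lower, most eggshell lists lie below 0, and cpg-7 at 1.57 and the open points of perm-2 and perm-4 lie above 0.

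The 8 genes whose log2 level was most like the mean of the 10 over 15 libraries were ubq-1 (r = 0.983), dut-1, gyg-2, nop-1, ZK858.6, npp-11, egg-4 and mlh-1 (r = 0.963). The mean of 10 joins patterns that differ, so the 8 most similar genes were also taken for each, after the values were seen. Those nearest to the mean of the 8 genes without perm-2 and perm-4 were gln-6 (r = 0.988), tdc-1, the yolk receptor gene rme-2, mex-5, dut-1, cdk-1, ani-1 and npp-3. Those nearest to perm-2 and perm-4 were B0513.4 (r = 0.952), F37H8.5, C39D10.7, ttr-6, pho-14, cpr-6, F37C4.5 and lipl-5 (r = 0.899). Of these C39D10.7 has a chitin binding Peritrophin-A domain, as cbd-1, cpg-1 and cpg-2 do. Other descriptions name a papain family protease for cpr-6, a lipase region for lipl-5 and a lysosomal thiol reductase for F37H8.5. Those of pho-14 and ttr-6 name a histidine phosphatase and a transthyretin-like family. In ust223 against N2 the 8 had log2 fold changes of 0.81 (F37C4.5) to 1.63 (cpr-6), beside 1.17 for perm-4. They were picked for likeness in the same libraries, so these values are a description.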

How the data were processed

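RNA-seq of 15 libraries was analysed from raw counts per gene that the authors deposited in 1 table. The submitters' processing notes name HISAT2 2.0.5. Not given in the sources used here are the build, the annotation, and the counting program with its handling of strand and of reads with several matches. The 207 rows without a WormBase identifier held at most 0.0475% of a library's counts and stayed out of tests.

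Counts were tested in edgeR 4.0.16 (R 4.3.3): filterByExpr removed low genes, TMM scaled the library sizes, and all 15 libraries entered 1 quasi-likelihood fit with genotype means, tested two-sided. Adjustment ran over the 17217 genes tested. SE is the size of the log2 fold change over the root of F. RPKM is CPM per kilobase of deposited gene length. Likeness used log2 of CPM with a pseudocount of 1. The script was tested on simulated data, with changed genes drawn at random from expressed genes, for each allele against N2. Of 100 genes changed by log2 1 up or down it recovered 14% to 18%, and of 100 changed by log2 2 it recovered 69% to 75%. Alternatives were 2 other filters, DESeq2 1.42.0 size factors or its Wald test, library totals, the 6 libraries of a comparison, a replicate block, each library left out, and 12 libraries without the 3 that stood apart.

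The 10 genes, the pathway lists (egg activation partners, chitin precursor synthesis, chondroitin synthesis, permeability barrier and lipid supply, cortical granule exocytosis, other chondroitin proteoglycans) and the marker lists (oocyte, mitotic and meiotic germline, sperm, early embryo, sheath and spermatheca, male soma, molting) were chosen with earlier results of these data known, as were the alternatives. Named genes were all 10, pathway genes called against N2, and the 8 genes most like the mean of the 10. The symbols syn-4, cpg-5 and cpg-6 matched no identifier. Coordinates are as deposited; 5 of the 10 had the same start and end in WBcel235 (Ensembl release 115). A planned search for a PUF motif in 3' UTRs was not analysed here. Intervals are 95% intervals of the model.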

Additional observations from a re-analysis of the deposited data

How the results depend on the processing

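In ok302 against N2, 8 of the 10 genes were called under each of the 8 alternatives that left out no single library (with library totals perm-4 higher in place of chs-1), and 7 to 8 when 1 library was left out; cbd-1, the 3 egg genes and the 3 cpg genes were called lower under all 14. In ust221 against N2, where edgeR called 0, library totals gave 4, all lower. The 12 libraries gave 3 lower and 1 higher, and DESeq2 gave 4 lower and 1 higher. Leaving out 1 library gave 0 to 5 (5 without N2 library 1). Over all genes library totals called 1133 there, the 12 libraries 2503, DESeq2 2064 and the fit without N2 library 1 1482. In ust222 against N2 leaving out 1 library gave 0 to 0. In ust223 against N2, where 1 was called, 0 were called with no filter, with RLE size factors and in the 6 libraries alone, 2 in the 12 libraries, and 0 to 1 with 1 library left out. Against ok302, library totals gave 0 of the 10 in ust221, in place of 6, and leaving out 1 library gave 2 to 7 in ust221, 5 to 8 in ust222 and 7 to 8 in ust223. The 6 libraries alone gave all 10 in ust223 against ok302, with 8972 of all genes called. The causes were not tested. Results of single genes changed sides of the threshold 41 times to a loss and 31 times to a gain, and no called direction turned.

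Counts over all genes moved more: 4104 in ok302 against N2 (2335 without N2 library 3, 9152 in the 12 libraries), 308 in ust221 (1 in the 6 libraries, 2503 in the 12), 1 in ust222 (0 in the 6, 962 without N2 library 1) and 233 in ust223 (32 in the 6, 2048 in the 12). Against ok302 they were 2878 in ust221 (722 without ust221 library 1, 7525 in the 12), 2904 in ust222 (1390 without ust222 library 1, 5808 in the 12) and 3054 in ust223 (1387 without ust223 library 3, 8972 in the 6). Library totals moved the median log2 fold change of all genes to -0.34 in ust221 and 0.30 in ok302 against N2 (-0.09 and 0.10 with TMM), and to -0.56 in ust221 and -0.29 in ust223 against ok302 (-0.11 and -0.16 with TMM). The shift was also over 0.1 in ust222 against N2 (-0.03, with TMM -0.17). The share of called genes that were higher was then 52.6% in ok302 against N2 (35.4% with TMM), 18% in ust221 against N2 (57.5%), 18.7% in ust221 against ok302 (65%) and 57.9% in ust223 against ok302 (68.5%). In the 12 libraries ust222 has 1 library, assumed to vary like the other genotypes.

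Replicate numbers did not pair the libraries: deviations of same-numbered libraries from their genotype mean correlated at -0.708 to 0.812, and in each comparison 0 to 3 of the 6 libraries correlated best with their own number. With the replicate block, 0, 0, 1 and 8 of the 10 genes were called in ust221, ust222, ust223 and ok302 against N2, and 5, 7 and 9 in ust221, ust222 and ust223 against ok302. The block lowered the count over all genes to 162 in ust221 against N2. All 10 genes had at least 1144 counts in every library, so the spread between 3 libraries rather than counting limits the precision.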
